A study of Mus musculus with 9 samples.

Results

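Txnip and the arrestin domain containing genes Arrdc1, Arrdc2, Arrdc3 and Arrdc4 code for alpha arrestins, and their mRNA was followed through a noradrenaline exposure of cultured mouse cortical astrocytes, the glial cells that feed and surround neurons. The 5 genes were taken by symbol from the 22100 rows of the deposited gene table, and all 5 were among the 13090 genes with enough counts to be tested. The table holds 9 libraries in 3 groups of 3. Control cells were unstimulated and are titled with the 3 day time. The 90 min cells received 50 µM noradrenaline and were collected at 90 min, while the 3 day cells had the same 90 min exposure, then medium without the ligand, and were collected 3 days after the application. No genotype, strain or age is given, and all groups were grown from brain cells on poly-L-lysine in high-glucose medium with 10% serum. The labels do not say whether control cells also had a medium change. Control cells of the 90 min time were not analysed here, so noradrenaline and collection time cannot be told apart in the 90 min group. The labels do not say whether replicates were separate cultures or animals, and p-values therefore measure the spread between libraries, which may be technical.

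Alpha arrestins share the arrestin fold with the beta arrestins that bind activated receptors. Most members carry short proline and tyrosine motifs that recruit ubiquitin ligases of the Nedd4 type, and in this way they mark membrane proteins for internalisation, sorting or degradation. Txnip also binds thioredoxin and restrains glucose uptake, and in many cell types its transcription follows glucose through the factor MondoA, coded by Mlxip, with its partner Mlx. Arrdc4 has also been described as a target of MondoA. Arrdc3 has been linked to the trafficking of beta adrenoceptors, the receptors through which noradrenaline raises cyclic AMP.

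Totals ranged from 15529158 to 18729980 counts per library, and 14920 to 15397 genes had at least 1 count. All 10 astrocyte markers had counts, and their summed level was 709 to 739 CPM, the count scaled to the library size with TMM factors, in controls, 682 to 713 at 90 min and 699 to 711 at 3 days. Gfap and S100b added little to this sum, with only 13 to 31 and 10 to 34 counts per library. Single markers moved within that sum at 90 min, where 2 of the 10 were higher and 5 lower: Gja1 (log2 0.93) and Slc1a3 (0.53) rose, while Sox9 fell from 248 ± 6.59 to 141 ± 1.84 CPM (−0.82). Fibroblast and meningeal markers, all 6 with counts, summed to 4990 to 5766, 5047 to 6408 and 4416 to 5193 CPM in the same order. Nearly all of it came from Fn1 (44742 to 65024 counts per library), Col1a1 (18863 to 25305) and Col1a2 (12682 to 15950). Dcn had 1364 to 1832 counts, Lum 118 to 164 and Pdgfra 89 to 143. The 6 pericyte and smooth muscle markers summed to 732 to 741 CPM in controls, 500 to 566 at 90 min and 664 to 683 at 3 days, with Kcnj8 at 0 in controls and at 3 days. Their fall at 90 min was carried by the receptor gene Pdgfrb (390 ± 2.19 to 200 ± 10.4 CPM). At 3 days 1 of the 4 tested markers of this list was called lower than in controls (list median log2 −0.26). Only 0.0764% of all tested genes were called lower there. The part of these markers in the results below was not tested. Neuron markers summed to 130 to 156 CPM over all libraries, nearly all of it from Map2 (2158 to 2577 counts per library). Tubb3 had 1 to 18 counts and Stmn2 4 to 19, and Rbfox3, Snap25 and Syt1 had too few to be tested. The 6 endothelial markers summed to 49.5 to 54.9 CPM in controls, 43.8 to 45.9 at 90 min and 51.0 to 58.4 at 3 days. The 7 oligodendrocyte lineage markers, which share Pdgfra with the fibroblast list, summed to 29.2 to 31.0 CPM in controls, 39.0 to 40.1 at 90 min and 28.4 to 30.6 at 3 days, and microglia markers to 5.67 to 10.1 over all libraries. Olig1, Olig2, Cldn5, P2ry12 and C1qa, defining markers of oligodendrocytes, endothelium and microglia, were at 0 in every library. Other markers of the same lists had counts in every library, among them Mbp (236 to 506), Tek (370 to 843), Flt1 (200 to 366) and Tmem119 (101 to 174). The zeros alone thus do not show that these cell types were absent. In bulk RNA, fewer cells of a type and less RNA per cell cannot be told apart.

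The promoters of the 3 genes named first below are shown because their mRNAs took different courses: Txnip fell, Arrdc3 rose and Arrdc4 was not called at 90 min. Each line holds the 250 bases before the annotated start, 5′ to 3′ on the gene's strand, from RefSeq on GRCm38.p6, and capitals mark matches to the motifs searched. All 5 genes had an entry in the RefSeq table. Motifs were searched in the whole RefSeq window of 300 bases, the 250 before the start and the 50 after it, in the members as in all other promoters. The deposited counts were made on a later build, and no position from one was used on the other. Txnip lies at chr3:96557707-96557956 on the plus strand, Arrdc3 (first of its 3 annotated starts) at chr13:80883134-80883383 on the plus strand, and Arrdc4 at chr7:68749239-68749488 on the minus strand.
Txnip: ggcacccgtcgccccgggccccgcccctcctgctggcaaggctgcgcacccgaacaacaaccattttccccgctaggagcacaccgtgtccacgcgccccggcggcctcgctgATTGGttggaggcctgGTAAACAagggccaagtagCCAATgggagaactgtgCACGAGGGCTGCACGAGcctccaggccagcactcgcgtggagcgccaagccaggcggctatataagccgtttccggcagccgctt
Arrdc3: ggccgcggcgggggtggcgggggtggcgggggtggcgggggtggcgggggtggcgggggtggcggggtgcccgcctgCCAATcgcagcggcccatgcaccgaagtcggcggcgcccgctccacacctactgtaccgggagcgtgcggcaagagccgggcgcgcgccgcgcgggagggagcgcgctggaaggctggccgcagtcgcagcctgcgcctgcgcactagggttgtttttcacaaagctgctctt
Arrdc4: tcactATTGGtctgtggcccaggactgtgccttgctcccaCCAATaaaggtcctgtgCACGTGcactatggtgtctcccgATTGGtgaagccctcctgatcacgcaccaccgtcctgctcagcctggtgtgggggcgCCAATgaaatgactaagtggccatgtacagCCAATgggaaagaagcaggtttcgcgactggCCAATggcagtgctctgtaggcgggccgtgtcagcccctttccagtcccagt

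The Txnip promoter held the FOXO motif TGTTTAC, read on the reverse strand, at 121 to 115 bases before the start, a match found in 3.65% of 32851 RefSeq promoter windows of 300 bases. It also held the CCAAT box on both strands, first at 137 and then at 102 bases before the start (37.4% of windows). A pair of CACGAG letters separated by 5 bases, at 85 to 69 bases before the start, was searched only after the sequence had been seen, and Txnip was the 1 window that held it. The Arrdc4 promoter held the E-box CACGTG at 193 to 188 bases before the start (7.15% of windows) and 6 CCAAT boxes. Arrdc3 held 1 CCAAT box at its first start, and at the third of its starts 1 copy of TGACG, a part of the cyclic AMP response element, on the reverse strand 248 bases upstream (20.8% of windows). The Arrdc2 promoter held 3 CCAAT boxes, and the Arrdc1 promoter held no match. None of the 5 genes had an exact match, on either strand of these windows, to the full cyclic AMP response element TGACGTCA (1.79% of windows). The same held for the carbohydrate response element pattern (CANGNG, then 5 bases of any kind, then CNCNTG, 0.557%) and the TATA box letters TATAAA (13.6%). The CACGAG pair of Txnip fits the carbohydrate pattern except at the T of CNCNTG, where it has A. Near the end of its printed line Txnip also holds tatataag, which the search for TATAAA does not count. Exact matching thus does not show that a variant of either site is absent. A match describes letters only, and no binding was measured.

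At the end of the exposure the most abundant alpha arrestin mRNA had fallen and that of the adrenoceptor-linked member had risen. Of the 5 genes, 1 rose, 2 fell and 2 were not called by edgeR at an adjusted p below 0.05, whereas 33.0% of all tested genes were called in this comparison, 17.5% higher and 15.5% lower. Group ranges did not overlap for the 3 called genes, against 43.5% of all tested genes. The median log2 fold change was −0.18 over the 5 genes and −0.00 over all tested genes.

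Txnip (Entrez 56338), the thioredoxin-binding member, had 613, 602 and 628 CPM in the controls and 293, 281 and 267 CPM at 90 min. Every 90 min library lay far below every control. The mean went from 614 ± 13.2 to 280 ± 13.4 CPM (SD, n = 3), a fall of 2.19-fold (log2 −1.13, SE 0.04, 95% interval −1.22 to −1.05, edgeR adjusted p = 1.91e-13). Among all tested genes Txnip had the 95th lowest log2 fold change. The counts behind these levels were 9509 to 11344 in controls and 4434 to 5242 at 90 min. In the GENCODE M21 annotation Txnip shares 606 of its 3123 exon bases with the antisense gene Gm15441, which was not analysed here, and reads from the shared bases cannot be told apart if strand was not used in counting.

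Arrdc3 (Entrez 105171), the member linked to beta adrenoceptors, moved the other way. Its levels were 38.0, 44.8 and 41.3 CPM in controls and 179, 175 and 177 CPM at 90 min. The groups were far apart, and the 90 min libraries lay close to each other. The mean rose 4.29-fold, from 41.4 ± 3.38 to 177 ± 1.93 CPM (log2 2.10, SE 0.06, 95% interval 1.97 to 2.23, edgeR adjusted p = 8.45e-15). Arrdc3 stood 129th from the top of all tested genes by log2 fold change. It shares 0 exon bases with an annotated gene on the opposite strand that its locus overlaps.

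Arrdc2 (Entrez 70807), a less studied adaptor of the same family, had 10.4, 12.7 and 11.5 CPM in controls and 8.33, 8.50 and 6.85 CPM at 90 min. The groups did not overlap, though the second 90 min library came close to the first control. It fell from 11.5 ± 1.12 to 7.90 ± 0.908 CPM (log2 −0.54, SE 0.12, 95% interval −0.79 to −0.29, edgeR adjusted p = 0.00155), on 114 to 200 counts per library.

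Arrdc4 (Entrez 66412), like Txnip linked to glucose uptake, had 24.0, 23.8 and 24.7 CPM in controls and 25.3, 19.0 and 19.8 CPM at 90 min. The first 90 min library lay above all controls and the other two below them, so the groups overlapped. The log2 fold change was −0.18 (SE 0.09, 95% interval −0.37 to 0.02, edgeR adjusted p = 0.168). Without that first library Arrdc4 was called lower at −0.32 (edgeR adjusted p = 0.00666), and with library totals in place of TMM factors at −0.25 (edgeR adjusted p = 0.0476). Arrdc1 (Entrez 215705), known for driving the budding of small vesicles at the cell surface with Tsg101, had 7.99, 9.69 and 9.34 CPM in controls and 9.01, 8.45 and 6.61 CPM at 90 min. Its groups overlapped, and its log2 fold change was −0.16 (SE 0.13, 95% interval −0.43 to 0.11, edgeR adjusted p = 0.377). The intervals of both genes leave out a fall the size of that of Txnip.

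**Figure D1:**
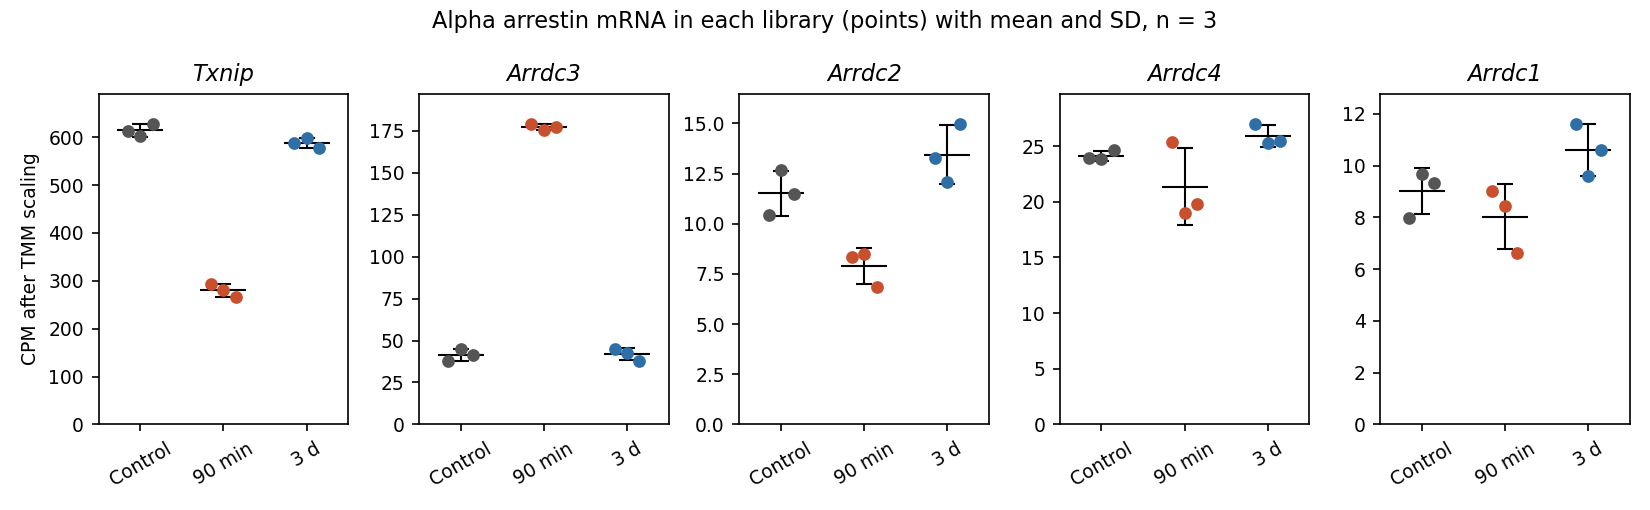
Level of each alpha arrestin mRNA in CPM after TMM scaling (vertical axis, from 0, own scale per gene) in control, 90 min and 3 day libraries; points are libraries, with mean and SD over 3. Txnip drops from 614 to 280 CPM and Arrdc3 climbs from 41.4 to 177 CPM at 90 min, and both stand near the control level at 3 days.

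At 3 days after the application all 5 mRNAs stood near the control level. None was called by edgeR, none had an unadjusted p below 0.05, and DESeq2 called none either, with 0 at an unadjusted p below 0.05 and 3 adjusted p-values given as missing. Of all tested genes 0.115% were called in this comparison, 0.0382% higher and 0.0764% lower. The libraries read 588, 597 and 577 CPM for Txnip and 45.0, 42.8 and 37.8 CPM for Arrdc3. Txnip lay a little below every control (log2 −0.06, 95% interval −0.15 to 0.02, edgeR adjusted p = 0.669), and Arrdc3 overlapped its controls (log2 0.02, 95% interval −0.12 to 0.16, edgeR adjusted p = 0.964). These intervals bound any remaining difference of either gene at 3 days to a small part of its 90 min change, but a p above the threshold does not show that the levels are equal.

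The 3 smaller members each had a mean above control at 3 days, and none passed the test. Arrdc2 had 13.3, 12.1 and 14.99 CPM (log2 0.23, 95% interval −0.01 to 0.46, edgeR adjusted p = 0.552) and Arrdc1 had 11.6, 9.59 and 10.6 CPM (log2 0.24, 95% interval −0.02 to 0.50, edgeR adjusted p = 0.578). Both overlapped their controls. Arrdc4 had 27.0, 25.3 and 25.4 CPM, all just above the highest control (log2 0.10, 95% interval −0.09 to 0.29, edgeR adjusted p = 0.790). Ranges thus did not overlap for Txnip and Arrdc4, against 16.1% of all tested genes.

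Between the 2 times, with the 90 min libraries shared with the first comparison, all 5 genes were called, 4 higher and 1 lower at 3 days. The share called among all tested genes was 39.0%, with 18.7% higher and 20.4% lower, and ranges did not overlap for 4 of the 5 genes against 47.1% of all. Txnip was 2.10-fold higher at 3 days than at 90 min (log2 1.07, edgeR adjusted p = 4.39e-13) and Arrdc2 1.70-fold higher (log2 0.77, edgeR adjusted p = 3.62e-05). Arrdc3 was 4.23-fold lower (log2 −2.08, edgeR adjusted p = 8.29e-15). Arrdc1 (log2 0.40, edgeR adjusted p = 0.0164) and Arrdc4 (log2 0.28, edgeR adjusted p = 0.0231) were higher by less, and Arrdc4 overlapped between the times. Arrdc1 lost its call without 90 min library 3 (log2 0.28, edgeR adjusted p = 0.0696) or 3 day library 1 (0.33, 0.0811), and Arrdc4 without either of these (0.23, 0.0763 and 0.24, 0.0862) or without 90 min library 2 (0.20, 0.117).

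**Figure D2:**
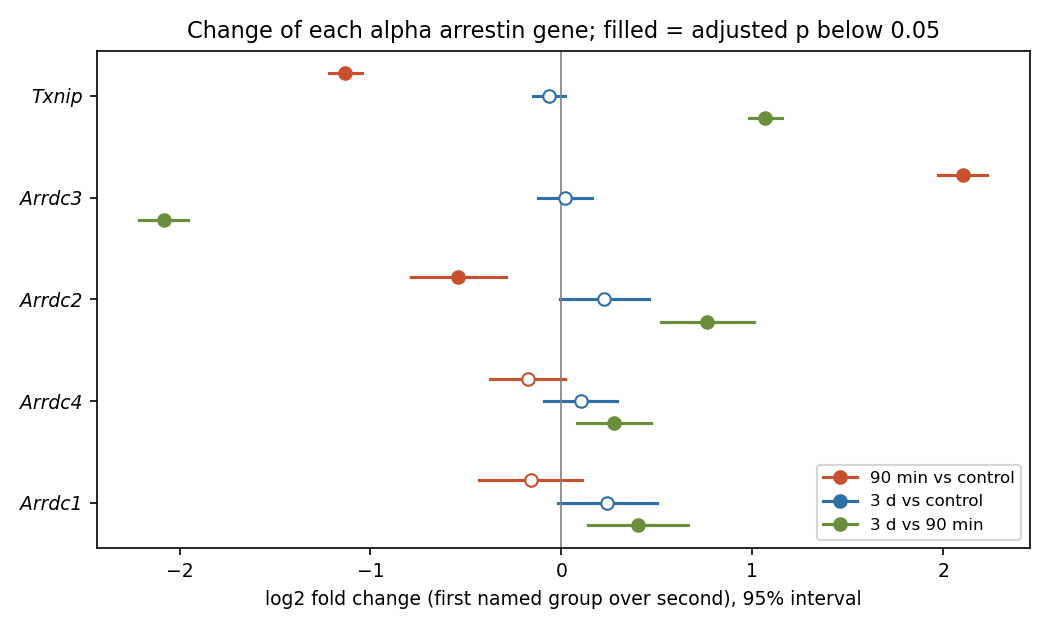
Log2 fold change of each gene (horizontal axis) with its 95% interval for the 3 comparisons; filled points have an edgeR adjusted p below 0.05. At 90 min Txnip (−1.13) and Arrdc2 (−0.54) lie below 0 and Arrdc3 (2.10) above it, while all 3 day intervals against control include 0.

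Because a longer transcript yields more fragments, levels were compared between genes only after division by the length of the longest protein-coding transcript in GENCODE M21, as CPM per kb. In controls Txnip had 217 CPM per kb, Arrdc3 10.1, Arrdc4 6.18, Arrdc1 5.41 and Arrdc2 4.90. Arrdc4 (6.10 to 6.32) lay above every library of Arrdc1 (4.80 to 5.81), whereas Arrdc1 and Arrdc2 (4.43 to 5.38) overlapped and have no order. At 90 min the levels were 99.1 for Txnip, 43.2 for Arrdc3, 5.47 for Arrdc4, 4.82 for Arrdc1 and 3.35 for Arrdc2. Arrdc4 and Arrdc1 overlapped there, and Arrdc2 (2.91 to 3.61) lay below Arrdc1 (3.97 to 5.41). At 3 days they were 208, 10.2, 6.64, 6.36 and 5.71 in the same order, and the 3 lowest overlapped from each to the next.

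Summed over the 5 genes, the length-scaled level was 244 ± 4.54 CPM per kb in controls, 156 ± 6.73 at 90 min and 237 ± 3.58 at 3 days. Txnip made up 89.1% of this sum in controls, 63.5% at 90 min and 87.8% at 3 days, and Arrdc3 4.14%, 27.7% and 4.31%. The 90 min libraries stood apart from all others on both shares. With the mean length of a gene's protein-coding transcripts in place of the longest, the share of Txnip was 84.4%, 55.2% and 82.5% and that of Arrdc3 5.31%, 32.7% and 5.50%. That length moved the smaller members the most: in controls it gave 13.8 CPM per kb for Arrdc3, 9.60 for Arrdc4, 8.67 for Arrdc1 and 8.46 for Arrdc2, beside 219 for Txnip. Within a library, where scaling cancels, there were 16.1, 13.4 and 15.2 Txnip counts per Arrdc3 count in controls. The ratio was 1.64, 1.60 and 1.505 at 90 min and 13.1, 13.9 and 15.3 at 3 days. Txnip counts per Arrdc4 count, the other member tied to glucose, went from 25.4 ± 0.133 in controls to 13.3 ± 1.61 at 90 min and 22.7 ± 0.920 at 3 days. The ratio to Arrdc4 lay below every control in every 90 min library, which shows unequal change of this pair and not which of them moved.

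**Figure D3:**
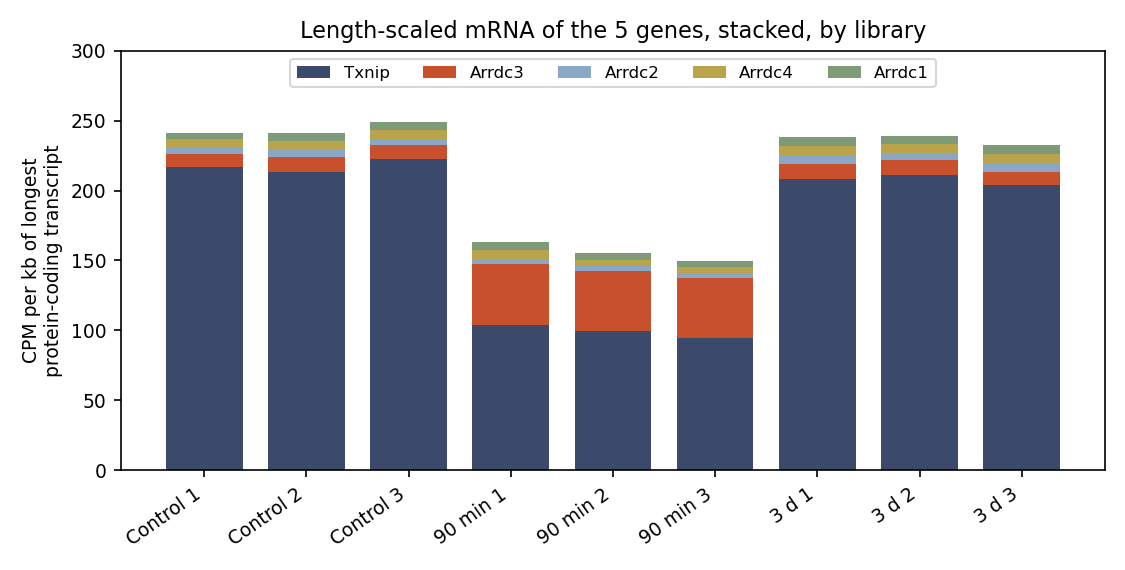
Length-scaled level of the 5 genes stacked for each of the 9 libraries (vertical axis, CPM per kb of the longest protein-coding transcript). Stacks reach about 244 in controls, 156 at 90 min and 237 at 3 days, and the Arrdc3 segment is widest at 90 min, at 27.7% of the stack.

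The other genes of the pathway were counted over 10 lists of partners, regulators and targets. Of 107 genes listed 95 were tested, and at 90 min 22 were higher and 23 lower, or 47.4% called, beside 33.0% of all tested genes (17.5% higher, 15.5% lower). At 3 days edgeR called none of them against control, with 6 at an unadjusted p below 0.05, and DESeq2 called none, with 5 unadjusted and 29 adjusted p-values missing. With 0.115% of all tested genes called at 3 days, a count of 0 says little about these lists. The lists were chosen with results of these data known, and their counts are descriptions. All values that follow compare 90 min with control unless another time is named.

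Of 7 tested relatives by fold, 0 rose and 2 fell, with a median log2 of −0.11. The share called was 28.6%, near the 33.0% of all tested genes. Vps26c, which codes for a subunit of the endosomal retriever complex, went from 84.0 ± 5.19 to 69.6 ± 1.65 CPM (log2 −0.27, edgeR adjusted p = 0.000395). The beta arrestin gene Arrb1 went from 36.5 ± 1.07 to 32.2 ± 1.13 CPM (log2 −0.18, edgeR adjusted p = 0.0358), a call lost in 7 of 16 alternatives, and Arrb2 had a log2 of −0.11 (edgeR adjusted p = 0.279). Arrdc5, the remaining arrestin domain containing gene, had 0 counts in all 9 libraries, which allows a level of up to 0.158 to 0.190 CPM per library at 3 counts, covering counting error only.

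Of 9 tested ligases of the type that alpha arrestins recruit, 1 was higher and 1 lower, with a median log2 of −0.01. The share called was 22.2%, below the 33.0% of all tested genes. Smurf1 was higher (95% interval 0.11 to 0.31 around a log2 of 0.21) and Smurf2 lower (log2 −0.18). Nedd4 itself, at 3000 ± 41.9 CPM in controls and 2896 ± 49.5 at 90 min, was not called (log2 −0.05, edgeR adjusted p = 0.313). Among 12 genes of the ESCRT machinery, with which Arrdc1 buds vesicles, 2 were higher and 1 lower (median log2 0.04). That is 25% called, also below the 33.0% of all tested genes. Vps37b, a subunit of the first ESCRT complex, went from 19.0 ± 0.528 to 51.0 ± 3.36 CPM (log2 1.42, edgeR adjusted p = 2.09e-11). Its paralogue Vps37a had 0.23, the sorting adaptor gene Stam −0.17, and Tsg101, the subunit that Arrdc1 binds, 0.10 (edgeR adjusted p = 0.135, not called).

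Genes of the thioredoxin system, which Txnip inhibits, were higher in 5 of 12 tested and lower in 1 (median log2 0.11). That is 50% called, beside 33.0% of all tested genes. Srxn1, which repairs overoxidised peroxiredoxins, rose from 44.7 ± 1.99 to 157 ± 9.08 CPM (log2 1.81, edgeR adjusted p = 8.45e-15). The thioredoxin reductase gene Txnrd1 rose from 108 ± 1.70 to 190 ± 8.70 CPM (log2 0.82, edgeR adjusted p = 6.65e-11), and the peroxiredoxin gene Prdx2 had a log2 of 0.44. Txn1, the thioredoxin that Txnip binds, was called at 0.12 (edgeR adjusted p = 0.0294), a call lost in 8 of 16 alternatives. Every 90 min library lay below all controls for Txnip and above them all for Srxn1. Ranges also did not overlap for 43.5% of all tested genes, and 6 of the 12 listed genes were not called. A link between Txnip and Srxn1 was not tested.

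Of 11 tested glucose transporter and hexokinase genes 5 were higher and 3 lower (median log2 −0.02). That is 72.7% called, beside 33.0% of all tested genes. Slc2a1, the main glucose transporter gene of glia and one whose protein Txnip is known to restrain, went from 97.0 ± 5.41 to 142 ± 6.62 CPM (log2 0.55, edgeR adjusted p = 4.33e-08). The hexokinase gene Hk2, the first step of glycolysis, went from 27.5 ± 0.0419 to 181 ± 8.22 CPM (log2 2.72, edgeR adjusted p = 1.28e-17). Slc2a10 was lower, at −0.65. Glucose uptake itself was not measured.

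Of 12 factors known to act on the Txnip promoter 0 rose and 5 fell (median log2 −0.14), beside 15.5% lower among all tested genes. Mlxip, which codes for MondoA, went from 51.1 ± 2.26 to 38.3 ± 2.19 CPM (log2 −0.41, edgeR adjusted p = 8.15e-05), while its partner gene Mlx was at −0.04 (edgeR adjusted p = 0.705). Mlxipl, the MondoA relative of liver, was near 1 CPM and not called (log2 −0.18, edgeR adjusted p = 0.733). Foxo1 fell from 58.5 ± 1.72 to 33.9 ± 1.34 CPM (log2 −0.79) and Foxo3 from 105 ± 2.36 to 64.3 ± 3.70 CPM (log2 −0.70). Nr3c1, the glucocorticoid receptor gene, fell from 163 ± 9.40 to 103 ± 0.830 CPM (log2 −0.65), and Usf1 had −0.18.

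Of 12 tested FOXO-responsive genes 7 were lower and 2 higher (median log2 −0.21), beside 15.5% lower and 17.5% higher among all tested genes. The growth arrest gene Gadd45a fell from 84.8 ± 0.395 to 26.3 ± 1.76 CPM (log2 −1.69, edgeR adjusted p = 2.56e-14). The cyclin gene Ccng2 (log2 −1.47) and Pik3ip1, an inhibitor of PI3 kinase (−1.16), also fell, while Irs2 and Cited2 rose (0.85 and 1.11). Glucocorticoid-responsive genes split, with 6 of 10 tested higher and 3 lower (median log2 0.19), beside 17.5% and 15.5% of all tested genes. The kinase gene Sgk1 rose from 104 ± 6.95 to 382 ± 25.2 CPM (log2 1.88) and the clock gene Per1 by 2.07, whereas Ddit4, an inhibitor of mTOR, fell by 1.26 on the log2 scale. Tsc22d3, a standard target of the receptor, was not called (log2 0.10, edgeR adjusted p = 0.396).

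Of 7 tested beta adrenoceptor and receptor kinase genes 1 rose (median log2 −0.07). That is 14.3% called, below the 33.0% of all tested genes. Adrb3 had 2, 5 and 2 counts in controls, 16, 21 and 16 at 90 min and 1, 5 and 2 at 3 days, so its groups did not overlap at 90 min on very few counts (log2 2.45, SE 0.52, edgeR adjusted p = 0.00119). Adrb1 was at 0.41 (edgeR adjusted p = 0.493). All 8 cyclic AMP early genes counted beside them were higher (median log2 2.85), beside 17.5% of all tested genes. Arrdc3 had a log2 of 2.10. Against control at 3 days, 1 of these 8 genes was called higher (list median log2 0.22), beside 0.0382% of all tested genes. Per1 is in this list and in the glucocorticoid list. Of 3 tested inflammasome genes, a pathway that Txnip is known to feed, none was called, and Nlrp3, Pycard, Casp1 and Il1b had too few counts to be tested.

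**Figure D4:**
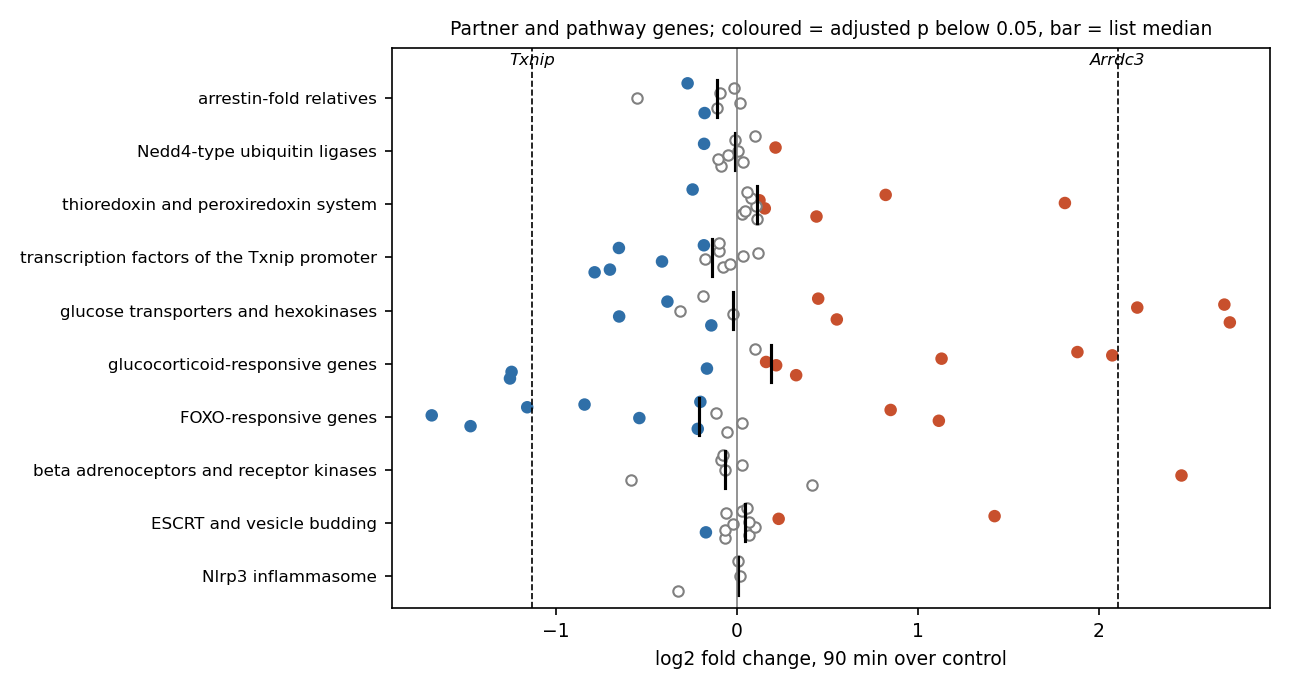
Log2 fold change at 90 min over control (horizontal axis) of each tested partner or pathway gene, 1 row per list; coloured points have an edgeR adjusted p below 0.05, bars mark list medians, and dashed lines mark Txnip (−1.13) and Arrdc3 (2.10). The FOXO-responsive row leans below 0 with a median of −0.21, and Gadd45a and Ccng2 lie left of the Txnip line.

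The genes whose course was most like each member were taken by the Pearson correlation of log2 CPM over the 9 libraries. The libraries form clusters by group, so the values of Txnip, Arrdc3 and Arrdc2 mainly describe a shared difference of the 90 min group. None of the correlations carries a p. Genes with r above 0.95 numbered 466 for Txnip, 795 for Arrdc3, 32 for Arrdc2, 2 for Arrdc1 and 0 for Arrdc4. The genes named for Txnip and Arrdc3 are thus the first of many close ones. Nearest to Txnip were the lipid regulator gene Srebf1 (r = 0.999), Mxd4 (0.999) and Pik3r1 (0.998), with log2 fold changes of −0.48, −0.61 and −1.27 at 90 min. Nearest to Arrdc3 were Aff1, Fosl2 and Medag (r = 0.998 each), with 1.98, 2.92 and 1.95. For Arrdc2 they were Nfatc4 (0.981), Parp3 (0.977) and Vsir (0.975), and for Arrdc1 Sap30l (0.960), Gbp5 (0.952) and Abcg4 (0.939). Nearest to Arrdc4 was its relative by fold Arrb2 (r = 0.946), before Klf8 (0.939) and Mettl25 (0.938). Arrdc1, Arrdc4 and their neighbours named here were not called at 90 min. Log2 values were −0.06 for Sap30l, −0.11 for Gbp5, −0.12 for Abcg4, −0.11 for Arrb2, −0.90 for Klf8 and −0.21 for Mettl25. Gbp5 and Klf8 were near 1 CPM in controls. What these correlations follow was not tested.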

How the data were processed

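Poly(A) RNA of 9 libraries was sequenced, and the titles of the samples gave group and replicate. The authors deposited estimated counts per gene. Per the submitters' processing notes, the tools were Salmon 1.8.0 and fastp 0.23.4, with the genome build mm39. Gene summarisation, annotation and strand setting were not given in the sources used here. Every deposited value was whole, so rounding changed none. Salmon divides reads between similar transcripts, so overlapping genes are less certain.

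The fit used edgeR 4.0.16 under R 4.3.3. A filter on low counts came first (filterByExpr, minimum count 10, minimum total 15), TMM factors were applied, and all 9 libraries entered 1 quasi-likelihood fit with a coefficient per group. Tests were two-sided, Benjamini-Hochberg adjustment ran over all 13090 tested genes, and a gene was called below 0.05. The SE is the size of the log2 fold change divided by the square root of F, and 95% intervals use it. With library totals in place of TMM factors the higher share of all calls went from 53.1% to 33.3% at 90 min, from 33.3% to 53.3% at 3 days and from 47.8% to 70.5% between the times. No libraries matched within sampling noise (chi-square per degree of freedom 2.37 to 6.89).

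Named genes are the members, Adrb1, Adrb3, Mlxip, Mlx, Mlxipl, Arrb1, Arrb2, Txn1, Slc2a1, the called genes with the smallest p of each list (at most 3), and the 3 genes most like each member. 1 further gene of the rule is not reported here. Nedd4, Tsg101, Usf1, Irs2, Cited2, Tsc22d3, Pdgfrb, Gja1, Slc1a3, Sox9 and the untested genes were named after their values were seen. So were Gfap, S100b, Map2, Tubb3, Stmn2, Mbp, Tek, Flt1, Tmem119, Fn1, Col1a1, Col1a2, Dcn, Lum and Pdgfra. The members and lists were chosen with earlier results of these data known. Alternatives were RLE factors, other filters, DESeq2 1.42.0, library totals, a fit without the group not compared, a replicate block, and leaving out each library. The scaling by library totals, the mean transcript length and leaving out libraries for the length-scaled sums and ratios were added after seeing the data.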

Additional observations from a re-analysis of the deposited data

Results flagged for a closer look

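The difference of each alpha arrestin mRNA from the shared controls was not the same at 90 min as at 3 days, by the test of that difference, the edgeR comparison of the treated groups at both times. The log2 difference, 3 days minus 90 min, was 1.07 for Txnip, −2.08 for Arrdc3, 0.77 for Arrdc2, 0.40 for Arrdc1 and 0.28 for Arrdc4. Every 3 day library lay beyond every 90 min library for the first 4 of these, and Arrdc4 overlapped. Of all tested genes 39.0% were called in the same comparison, and 47.1% had ranges that did not overlap. The calls of Arrdc1 and Arrdc4 were lost when certain single libraries were left out. Noradrenaline and collection time cannot be told apart here. With 3 libraries per group no single library could be tested as standing apart.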

How the results depend on the processing

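At 90 min the calls and directions of Txnip (log2 −1.20 to −1.10), Arrdc3 (2.03 to 2.16) and Arrdc2 (−0.61 to −0.45) held in all 16 alternatives, and Arrdc1 stayed uncalled (−0.25 to −0.04). Arrdc4 became called with library totals (−0.25) and without 90 min library 1, its values without 1 library running from −0.32 to −0.10. Members called without 1 library were 3 to 4 at 90 min, 0 to 0 at 3 days and 3 to 5 between the times, the lowest without 90 min library 3 or 3 day library 1, where 2 rather than 4 were higher. Between the times Arrdc1 ran from 0.28 to 0.49 and Arrdc4 from 0.20 to 0.42. The 3 day log2 value of Arrdc3, near 0 throughout, changed sign without control 1 (−0.040) and without 3 day library 1 (−0.037), in a range of −0.040 to 0.090. Of the other named genes at 3 days, Adrb3 changed sign without control 2 (0.31) and without 3 day library 1 (0.099), in a range of −1.11 to 0.31. Without 3 day library 1 Mlxip (−0.016, up to 0.10 without 3 day library 3) and Mlxipl (−0.011, up to 0.46 without 3 day library 2) changed sign too, and none of them was called. Over the whole table, 15 genes were called at 3 days, 205 with no filter on low counts, 76 with DESeq2, 76 with only the 2 groups fitted, 3 with the replicate block, and 0 to 83 without 1 library. The cause of these changes was not tested. Equal replicate numbers did not pair the libraries: 0 of 9 pairs correlated above 0.1 (−0.15 to 0.05), none correlated best with its own number, and the block changed no member's call. Of 1315 other alternative values for named genes 1272 kept direction and call, 28 lost the call, 11 gained it and 4 changed sign. Among the members Arrdc1 and Arrdc2 rest on the fewest counts. Of the other named genes Adrb3, Adrb1 (6 to 16 counts per library), Mlxipl (14 to 33), Klf8 and Gbp5 had fewer still. Low counts limit what could be detected for all of these.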
